A study of Mus musculus with 4 samples.

Results

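The genes described here make cholesterol, sense it and move it inside the cell. The list held 28 gene names, and 27 of them were found by symbol among the 38087 genes counted in mouse bone marrow-derived macrophages. The remaining name, Msmo1, stands in the table under its older symbol Sc4mol. Its values are given beside the others and are left out of every count of the 27. No symbol was repeated.

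The macrophages were grown from bone marrow of C57BL/6 mice aged 6 to 8 weeks. Culture lasted 5 to 7 days with 30% L929-conditioned medium, a source of macrophage growth factor. Vesicles came from Beas2B cells, a human lung epithelial line. The cells met these vesicles for 16 h. They carried scrambled control RNA (control vesicles, marked control EV in the figures), miR-17 mimics (miR-17 vesicles) or miR-93 mimics (miR-93 vesicles). The fourth group is labelled WT, with no vesicle exposure named, and is called unexposed here. Which arm of each miRNA the mimics copied is not given in the sources used here. RNA of 4 biological replicates was pooled before sequencing, so each group was 1 library, with no measure of how cultures vary. No test between conditions was possible, and each ratio below compares libraries. In bulk RNA, fewer cells of a type and less RNA per cell cannot be told apart.

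Cells build cholesterol from acetyl-CoA through mevalonate, farnesyl diphosphate, squalene and lanosterol. The transcription factor SREBP2, encoded by Srebf2, turns the enzyme genes on when membranes of the endoplasmic reticulum run short of sterol. SCAP escorts SREBP2 to the Golgi for cleavage, and the INSIG proteins hold the pair back when sterol is plentiful. Macrophages also take in sterol from lipoproteins and dead cells, export it from lysosomes through NPC2 and NPC1, and store it as esters made by SOAT1.

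The 27 genes differed little between the libraries. None was past 2-fold in any of the 6 pairs, and the ratio of the highest to the lowest library had a median of 1.22 and a range of 1.06 to 1.45. Over all genes with a mean of at least 20 normalized counts the median of that ratio was 1.25, and over genes with a mean of at least 100, as nearly all members have, it was 1.21. The control vesicle library had the highest value for 13 of the 27 members and the miR-93 vesicle library the lowest value for 11. Over all 15386 such genes, the control vesicle library was highest for 35.5% and the miR-93 vesicle library lowest for 23.4%. The cholesterol enzymes Fdft1 and Cyp51 and the sterol sensor Insig1 were among the members highest with control vesicles. Mvk, the kinase of mevalonate, was lower in all exposed libraries than in the unexposed one by the counts, and by the authors' values less so with control vesicles.

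The 5p strands of both miRNAs are shown because they share their seed, bases 2 to 8, which pairs with target RNAs. That the mimics copied these arms is an assumption, on which the site search also rests. Both are RefSeq sequences on GRCm38.p6, and capitals mark the seed.
mmu-miR-17-5p: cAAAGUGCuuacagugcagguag
mmu-miR-93-5p: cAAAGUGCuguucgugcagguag

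The complement of that seed, GCACTTT, was searched for in 3′ UTRs of GENCODE M21, taking the longest one annotated for a gene. It lay in 3 of the 27 members, or 11.1%, and in 15.3% of 12177 measured genes. The members were Lss, Soat1 and Stard4. The Lss site lies at chr10:76554608-76554636 on the plus strand and the Soat1 site at chr1:156425016-156425044 on the minus strand. The Soat1 site is in the GENCODE gene but outside the span of Soat1 that the authors counted, chr1:156428108-156474328. Each is printed with the match in capitals.
Lss site: ttggccatggtGCACTTTgtgccctctgc
Soat1 site: ccgctgctggaGCACTTTccttcaggtga

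Promoter windows around the annotated start were found in RefSeq for 22 of the 27 members. A gene with several windows counted when any of them held the motif. Each motif was read on both strands, and matches may overlap those of another motif. TCACNCCAC, a form of the sterol regulatory element that SREBP proteins bind, was in 1 of 22 members, Hmgcs1, and in 1.41% of 10134 measured genes. CCAAT, which the factor NF-Y binds, was in 20 of 22 members and in 42.7% of those genes. GGGCGG, a GC box, was in 20 of 22 members and in 66.7%, and CACGTG, an E-box, was in 5 of 22 members and in 11.7%. These matches describe letters in a window and say nothing about a factor being bound there.

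The following stretches of GRCm38.p6 show the Hmgcs1 match and a CCAAT match, read on the gene's own strand, in Cyp51, a member far below control vesicles in the miR-93 vesicle library. The Hmgcs1 stretch is chr13:119690189-119690247 on the plus strand, with the match starting at position -137 from the start site. The Cyp51 stretch is chr5:4104697-4104751 on the minus strand, starting at -29. Capitals mark the match.
Hmgcs1 promoter: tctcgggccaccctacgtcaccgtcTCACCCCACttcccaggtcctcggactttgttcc
Cyp51 promoter: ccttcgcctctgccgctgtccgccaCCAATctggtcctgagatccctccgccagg

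The libraries held 17815250 to 22607247 reads in genes, and the 27 members took 0.164% to 0.183% of them. A member had between 56 and 12815 reads in a library. Values below are normalized counts, that is reads divided by a size factor of 0.854 to 1.13 per library. Ratios carry a 95% exact conditional interval that covers counting error only. The threshold for calling a gene higher or lower had 3 conditions: a ratio of 1.2-fold or more, an interval that left out 1, and a pair mean of 20 or more normalized counts. All 27 members passed that minimum in every pair. Of 8 macrophage markers 7 were found, and they summed to 599286 normalized counts in unexposed, 688419 with control vesicles, 557197 with miR-17 vesicles and 571596 with miR-93 vesicles. The 5 neutrophil markers summed to 996, 719, 1139 and 1108 and the 4 T and NK cell markers to 2037, 1648, 2199.9 and 2448 in the same order. The control vesicle library, where many members were highest, thus had the highest macrophage sum and the lowest neutrophil and T and NK cell sums. Of the latter lists, 3 neutrophil markers and 3 T and NK cell markers were under the minimum, so these sums rest on few genes. The fibroblast sum was also lowest with control vesicles, at 71.4. The dendritic cell sum was highest there, at 307. The B cell sum there, at 504, was above both mimic libraries and below unexposed, at 550. Under the minimum were 3 of 5 fibroblast, 3 of 4 B cell and 2 of 4 dendritic cell markers, so these sums too rest on few genes. The part of these differences in the members' ratios was not tested. The 5 epithelial markers summed to 10.9 to 15.1, with 11.6 in unexposed, and were each under the minimum. They are mouse genes and the vesicles came from a human line, so their sums do not measure RNA carried over from the vesicles. None of the markers found, for macrophages or for the other 8 cell types, was at 0 in all libraries.

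**Figure D1:**
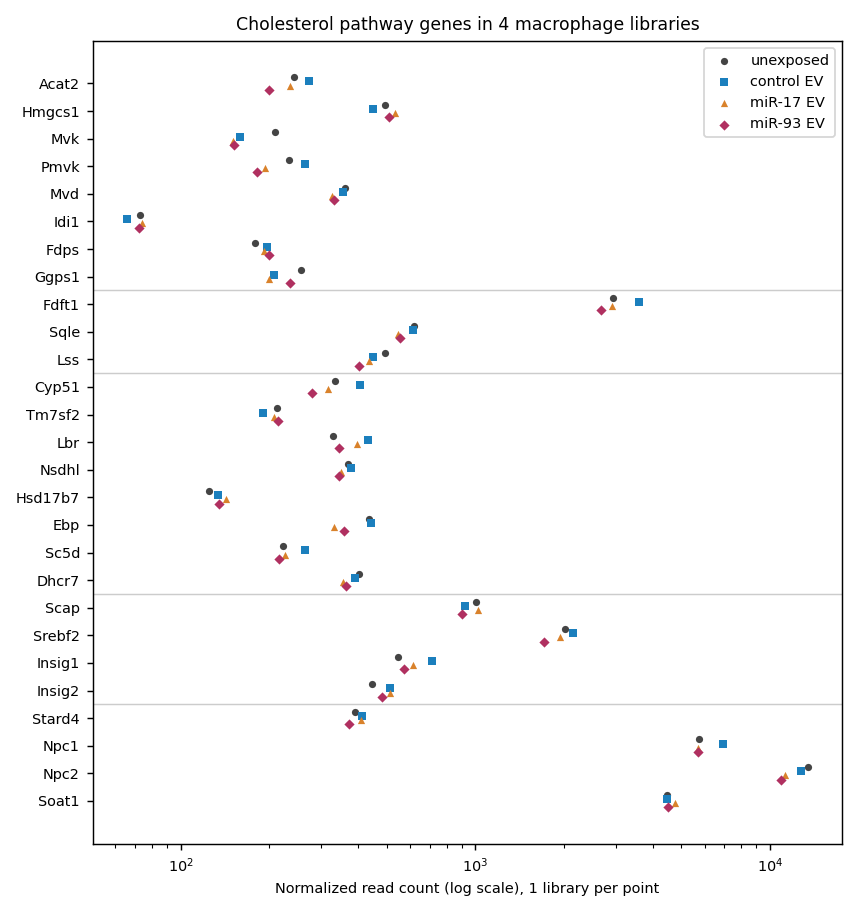
Normalized read count of each of the 27 members in the 4 libraries, on a log scale, with 1 point per library and grey lines between the role groups. Idi1 sits lowest, at 65.6 to 73.7, and Npc2 highest, at 10941 to 13505.

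Set per kilobase of annotated exon, so that genes of different length can be compared, the mean level over the libraries was highest for the lysosomal sterol carrier Npc2, at 2225 normalized counts per kilobase. Fdft1 followed at 715, Npc1 at 532, Soat1 at 466 and Srebf2 at 272. The lowest levels were 26.2 for Hsd17b7 and 20.3 for Idi1. Npc2, Npc1 and Soat1 thus stood above every enzyme of synthesis but Fdft1 on this scale. Fdft1 shares 767 bases with Ctsb, a gene of 236789 to 275742 normalized counts on the opposite strand. Whether counting used strand is not given, so the level and place of Fdft1 are uncertain. Neighbours in this order cannot be told apart statistically, for want of replicate libraries.

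Among the early steps, Hmgcs1, which makes HMG-CoA from acetoacetyl-CoA, had 493 normalized counts in unexposed, 449 with control vesicles, 536 with miR-17 vesicles and 508 with miR-93 vesicles. It was lowest with control vesicles, and its ratio of miR-17 vesicles to control vesicles was 1.195 (interval 1.05 to 1.36), just inside the threshold of 1.2-fold. Acat2, the thiolase that supplies acetoacetyl-CoA, had 242, 272, 235 and 199 normalized counts in the same order of libraries. It was lower with miR-93 vesicles than with control vesicles, with a ratio of 0.733 (0.607 to 0.885), and than in unexposed, with a ratio of 0.822 (0.68 to 0.993). The upper bound of the latter lies close to 1. In the authors' deposited log2 values these differences were -0.10 and -0.06, and neither was past the threshold.

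Mvk (ENSMUSG00000041939, chr5:114444269-114460591 in mm10) adds the first phosphate to mevalonate. It had 209 normalized counts in unexposed, 159 with control vesicles, 150.0 with miR-17 vesicles and 151 with miR-93 vesicles. The unexposed library stood apart from the other libraries, which lay between 150.0 and 159. Its ratios to unexposed were 0.763 (0.609 to 0.954), 0.719 (0.582 to 0.887) and 0.725 (0.586 to 0.895) for control, miR-17 and miR-93 vesicles. In the authors' deposited log2 values the difference with control vesicles was -0.15, inside the threshold, and those with miR-17 and miR-93 vesicles were -0.33 and -0.40. Mvk also had the highest GC content of the members, 55%.

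Pmvk (ENSMUSG00000027952, chr3:89459118-89469013), the next kinase, had 233 normalized counts in unexposed, 265 with control vesicles, 193 with miR-17 vesicles and 182 with miR-93 vesicles. Both mimic libraries were below the other libraries. Against control vesicles its ratio was 0.731 (0.604 to 0.884) for miR-17 vesicles and 0.687 (0.566 to 0.835) for miR-93 vesicles, and against unexposed it was 0.781 (0.642 to 0.95) for miR-93 vesicles. For miR-17 vesicles against unexposed the ratio was 0.831 (0.686 to 1.01), with 1 inside the interval.

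Ggps1 makes geranylgeranyl diphosphate, used to attach lipid anchors to small GTPases. It had 256 normalized counts in unexposed, 207 with control vesicles, 199 with miR-17 vesicles and 235 with miR-93 vesicles. It was lower than unexposed with control vesicles, at a ratio of 0.809 (0.663 to 0.987), and with miR-17 vesicles, at 0.776 (0.644 to 0.935). Its span shares 170 bases with Arid4b on the opposite strand.

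Mvd, the decarboxylase that yields isopentenyl diphosphate, ranged from 326 to 363 normalized counts. Idi1, which isomerises that product, ranged from 65.6 to 73.7, and Fdps, which condenses it to farnesyl diphosphate, from 179 to 199. None of the 3 was past the threshold in any pair. Mvd lies inside Gm20388, a gene model of 67629 to 73179 normalized counts, so its own reads are uncertain.

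Fdft1 (ENSMUSG00000021273, chr14:63145153-63177793), squalene synthase, commits farnesyl diphosphate to sterols. It had 2924 normalized counts in unexposed, 3593 with control vesicles, 2907 with miR-17 vesicles and 2665 with miR-93 vesicles. The control vesicle library stood above the other libraries. The ratio of control vesicles to unexposed was 1.23 (1.17 to 1.29), and against control vesicles the ratios were 0.809 (0.77 to 0.85) for miR-17 vesicles and 0.742 (0.705 to 0.78) for miR-93 vesicles. Fdft1 shares 767 bases with the cathepsin gene Ctsb on the opposite strand, which had 264358, 275742, 236789 and 237936 normalized counts in the same order of libraries. Ctsb was also highest with control vesicles, with a log2 ratio to unexposed of 0.06, against 0.30 for Fdft1. The treatment of strand is not given in the sources used here, and the part of Ctsb reads in the Fdft1 values was not tested.

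Sqle, which oxidises squalene, had 619, 616, 545 and 557 normalized counts in unexposed, control vesicles, miR-17 vesicles and miR-93 vesicles. Both mimic libraries were lower, by less than the threshold. Lss, which closes squalene epoxide into lanosterol, had 495, 449, 436 and 403. It was lower with miR-93 vesicles than in unexposed, with a ratio of 0.813 (0.713 to 0.928). Lss shares 11268 bases with the antisense gene 4930483K19Rik, whose log2 ratio in the same pair was -0.32, beside -0.30 for Lss.

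Cyp51 (ENSMUSG00000001467, chr5:4081145-4104746) takes the first methyl group off lanosterol. It had 335 normalized counts in unexposed, 406 with control vesicles, 317 with miR-17 vesicles and 280 with miR-93 vesicles. The control vesicle library was highest and the miR-93 vesicle library lowest. Its ratios were 1.21 (1.04 to 1.42) for control vesicles against unexposed, 0.78 (0.671 to 0.906) for miR-17 vesicles against control vesicles and 0.688 (0.589 to 0.805) for miR-93 vesicles against control vesicles. In the authors' deposited log2 values the difference of control vesicles from unexposed was -0.00070 for Cyp51. Sc4mol (Msmo1), a methyl oxidase of a later step, had 655, 855, 670 and 654 normalized counts, with control vesicles again highest. Its log2 ratios were 0.38 for control vesicles against unexposed, -0.35 for miR-17 vesicles against control vesicles and -0.39 for miR-93 vesicles against control vesicles.

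Lbr, a sterol reductase that also anchors chromatin to the nuclear envelope, had 329 normalized counts in unexposed, 431 with control vesicles, 398 with miR-17 vesicles and 345 with miR-93 vesicles. Its ratio to unexposed was 1.31 (1.12 to 1.53) with control vesicles and 1.21 (1.04 to 1.4) with miR-17 vesicles, and it was lower with miR-93 vesicles than with control vesicles, at 0.80 (0.692 to 0.926). Tm7sf2, a reductase of the same step, had 212, 190, 208 and 215 normalized counts and was past the threshold in no pair. The members of this enzyme pair had opposite extremes, with control vesicles highest for Lbr and lowest for Tm7sf2.

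Ebp (ENSMUSG00000031168, chrX:8185329-8193512), the sterol isomerase, had 437 normalized counts in unexposed, 442 with control vesicles, 332 with miR-17 vesicles and 358 with miR-93 vesicles. Both mimic libraries lay below both other libraries. The ratios to unexposed were 0.759 (0.658 to 0.875) for miR-17 vesicles and 0.82 (0.712 to 0.943) for miR-93 vesicles. Against control vesicles they were 0.752 (0.65 to 0.87) and 0.812 (0.703 to 0.937).

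Sc5d, the desaturase that follows Ebp, had 222, 264, 225 and 216 normalized counts, and its ratio of miR-93 vesicles to control vesicles was 0.821 (0.682 to 0.989). Dhcr7, which reduces dehydrocholesterol to cholesterol, ranged from 355 to 404 normalized counts. Nsdhl and Hsd17b7, which act in removing sterol methyl groups, ranged from 344 to 379 and from 124 to 143. Dhcr7, Nsdhl and Hsd17b7 were past the threshold in no pair.

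Srebf2 (ENSMUSG00000022463, chr15:82147266-82205376) had 2020.2 normalized counts in unexposed, 2146 with control vesicles, 1935 with miR-17 vesicles and 1714 with miR-93 vesicles. The miR-93 vesicle library was lowest. Its ratio was 0.799 (0.749 to 0.852) against control vesicles, and 0.848 (0.796 to 0.904) against unexposed, which is inside the threshold. Scap had 1003, 919, 1024 and 903 normalized counts and was past the threshold in no pair.

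Insig1 (ENSMUSG00000045294, chr5:28071363-28078662), itself a target of SREBP2, had 546 normalized counts in unexposed, 714 with control vesicles, 616 with miR-17 vesicles and 572 with miR-93 vesicles. The control vesicle library was highest and unexposed lowest. The ratio of control vesicles to unexposed was 1.31 (1.16 to 1.47), and that of miR-93 vesicles to control vesicles was 0.801 (0.715 to 0.897). Insig2, its paralog, had 446, 515, 512 and 483 normalized counts. It too was lowest in unexposed, with a ratio of control vesicles to unexposed of 1.16 (1.01 to 1.32), inside the threshold.

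Npc1 (ENSMUSG00000024413, chr18:12189693-12236400), the membrane protein that exports sterol from lysosomes, had 5751 normalized counts in unexposed, 6923 with control vesicles, 5696 with miR-17 vesicles and 5702 with miR-93 vesicles. The control vesicle library stood alone, with the other libraries between 5696 and 5751. Its ratio of control vesicles to unexposed was 1.204 (1.16 to 1.25), just past the threshold, and those of the mimic libraries to control vesicles were 0.823 (0.794 to 0.852) and 0.824 (0.795 to 0.854). Npc1 shares 305 bases with 3110002H16Rik and holds Gm15956, and their log2 ratios of control vesicles to unexposed were 0.06 and 0.08.

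Npc2 (ENSMUSG00000021242, chr12:84754560-84773112), the soluble lysosomal carrier that hands sterol to NPC1, had 13505 normalized counts in unexposed, 12735 with control vesicles, 11222 with miR-17 vesicles and 10941 with miR-93 vesicles. The order differed from that of Npc1, with unexposed highest. Its ratios to unexposed were 0.831 (0.811 to 0.852) for miR-17 vesicles and 0.81 (0.79 to 0.831) for miR-93 vesicles. The ratio for miR-17 vesicles was just past the threshold. Under the alternatives described below, its call was lost with total counts, TMM scaling, the GC trend removed, the authors' log2 values and aligned bases. The call for miR-93 vesicles was lost with total counts and the authors' log2 values.

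Soat1, the sterol esterifying enzyme, had 4482, 4481, 4762 and 4525 normalized counts and was the steadiest member, with a ratio of highest to lowest library of 1.06. Stard4, a cytosolic sterol carrier, ranged from 373 to 412. Neither was past the threshold in any pair, and with Lss they are the members with a miR-17 family site. The log2 ratios of miR-17 vesicles to control vesicles for these 3 ranged from -0.04 to 0.09. Those of miR-93 vesicles to control vesicles ranged from -0.15 to 0.01, with a median of -0.14, the same as over all 27 members.

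In control vesicles against unexposed, 5 members were higher (Fdft1, Cyp51, Lbr, Insig1 and Npc1) and 2 lower (Mvk and Ggps1). Of 15294 genes tested, 10.6% were higher and 11.1% lower by the same rule, and 1.41% were past 2-fold in either direction. The median log2 ratio was 0.03 over the members and 0.00 over all genes tested. The share of members past the threshold, 18.5% higher and 7.41% lower, rests on few genes. With the GC trend over all genes removed, 3 members were higher and 1 lower, and the calls of Fdft1, Npc1 and Ggps1 were lost. Of all genes, 10.6% were then higher and 9.87% lower. In the authors' log2 values the calls of Cyp51, Mvk and Ggps1 were lost, while Fdps, Pmvk and Sc5d passed 1.2-fold as higher and Mvd as lower, with no interval asked. By those values 19.8% of all genes were higher and 21.1% lower. Without the 7 members that overlap another gene the counts were also 3 and 1.

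For miR-17 vesicles against unexposed, 1 member was higher (Lbr) and 4 were lower (Mvk, Ggps1, Ebp and Npc2), where 6.67% of genes were higher, 6.14% lower and 0.604% past 2-fold. The median log2 ratio was -0.03 over the members and -0.01 over all genes. For miR-93 vesicles against unexposed, 0 members were higher and 6 lower (Acat2, Mvk, Pmvk, Lss, Ebp and Npc2), where 7.05% of genes were higher, 6.77% lower and 0.656% past 2-fold. The median log2 ratio was -0.12 over the members and -0.01 over all genes. With libraries scaled by total counts, 2 of those 6 were lower, Mvk and Pmvk, and the median over the members was -0.08. That scaling also moved the split over all genes from 1086 higher and 1043 lower to 1520 and 711. For miR-17 vesicles the split moved from 1027 and 945 to 1500 and 609, and the median over the members changed sign, to 0.02. The median of all genes moved to 0.04 in both pairs. With the GC trend removed, 1 member was higher and 3 lower with miR-17 vesicles, where Npc2 was lost. With miR-93 vesicles 0 were higher and 6 lower, where Lss was lost and Cyp51 gained. Of all genes, 5.54% were then higher and 5.42% lower with miR-17 vesicles, and 5.94% and 5.87% with miR-93 vesicles. In the authors' log2 values the calls of Lbr and Npc2 with miR-17 vesicles were lost, as were those of Acat2, Lss, Npc2 and Pmvk with miR-93 vesicles, while other members passed. With miR-17 vesicles these were Hsd17b7 as higher and Pmvk and Sqle as lower. With miR-93 vesicles they were Fdps and Hsd17b7 as higher and Cyp51 and Sqle as lower. The authors' values, with no interval asked, put 16.3% of all genes higher and 15.03% lower with miR-17 vesicles. For miR-93 vesicles the shares were 16.4% and 13.98%.

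**Figure D2:**
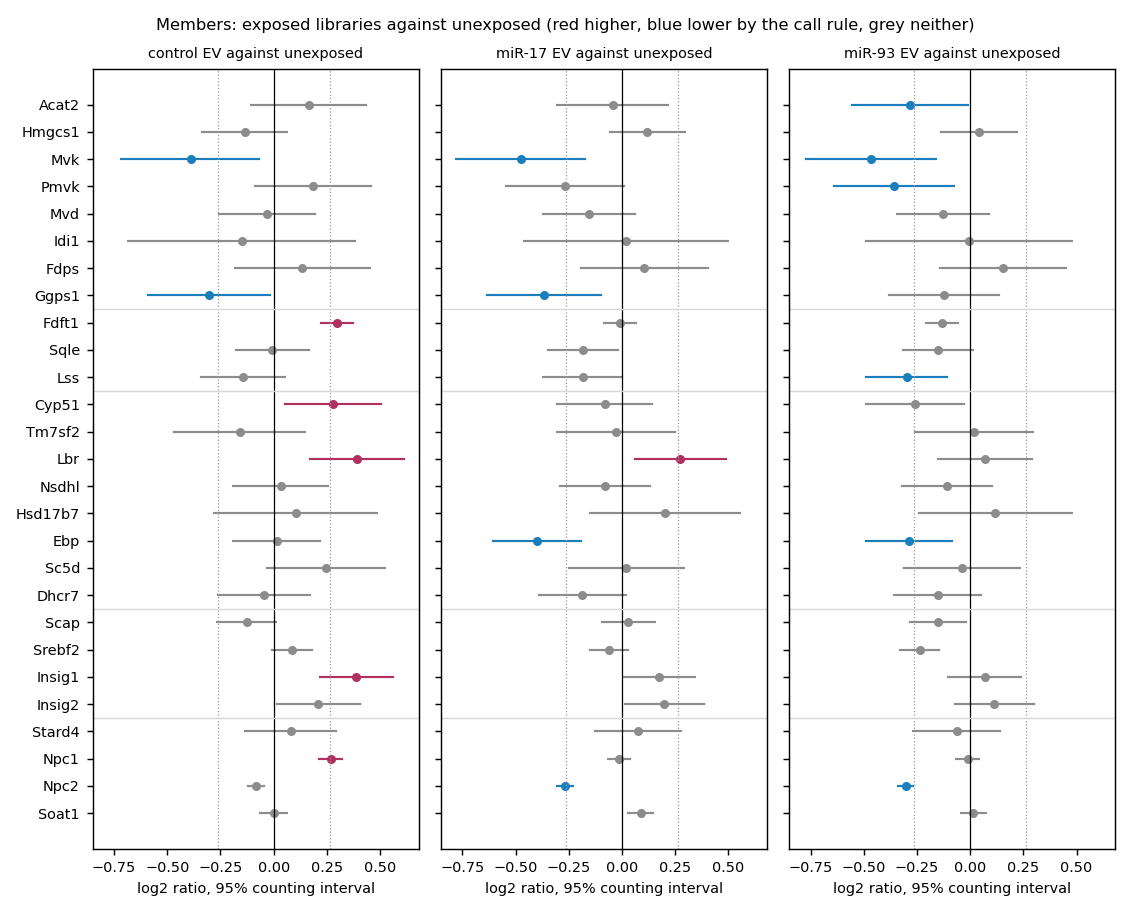
Log2 ratio of each member to the unexposed library in each exposed library, with 95% counting intervals and dotted lines at 1.2-fold; red and blue points are higher or lower by the call rule. Higher members number 5 with control vesicles and 0 with miR-93 vesicles, and lower members 2 and 6.

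The mimic libraries were also compared with control vesicles, from which they differ by label in the RNA carried. These comparisons share the control vesicle library, so its own values enter both. That library was highest for 35.5% of all genes and lowest for 32.1%. Without replicate libraries, an effect of the mimics cannot be told from other differences between libraries, and it was not tested. In miR-17 vesicles against control vesicles, 0 members were higher and 5 lower (Pmvk, Fdft1, Cyp51, Ebp and Npc1), where 14.1% of genes were higher, 13.1% lower and 1.65% past 2-fold. The median log2 ratio was -0.12 over the members and -0.02 over all genes. In miR-93 vesicles against control vesicles, 0 members were higher and 10 lower, where 14.1% were higher, 13.1% lower and 1.58% past 2-fold. Those 10 were Acat2, Pmvk, Fdft1, Cyp51, Lbr, Ebp, Sc5d, Srebf2, Insig1 and Npc1, and the median over the members was -0.14, with -0.02 over all genes. With the GC trend removed the counts of lower members were 3 and 6, where 12.6% and 12.8% of all genes were lower. The calls then lost were Fdft1 and Npc1 for miR-17 vesicles, and Ebp, Sc5d, Srebf2, Insig1 and Npc1 for miR-93 vesicles, where Stard4 was gained. In the authors' log2 values the lost calls were Cyp51 for miR-17 vesicles, where Hmgcs1 passed as higher and Insig1, Nsdhl and Sc5d as lower, and Acat2, Lbr and Npc1 for miR-93 vesicles. By those values 24.0% of all genes were higher and 21.3% lower for miR-17 vesicles, and 23.5% and 21.3% for miR-93 vesicles. Scaling by total counts left 3 and 7 lower and put Hmgcs1 past the threshold as higher with miR-17 vesicles. It moved the split over all genes from 2165 higher and 2011 lower to 2716 and 1431 for miR-17 vesicles, and from 2159 and 2010 to 2657 and 1446 for miR-93 vesicles.

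**Figure D3:**
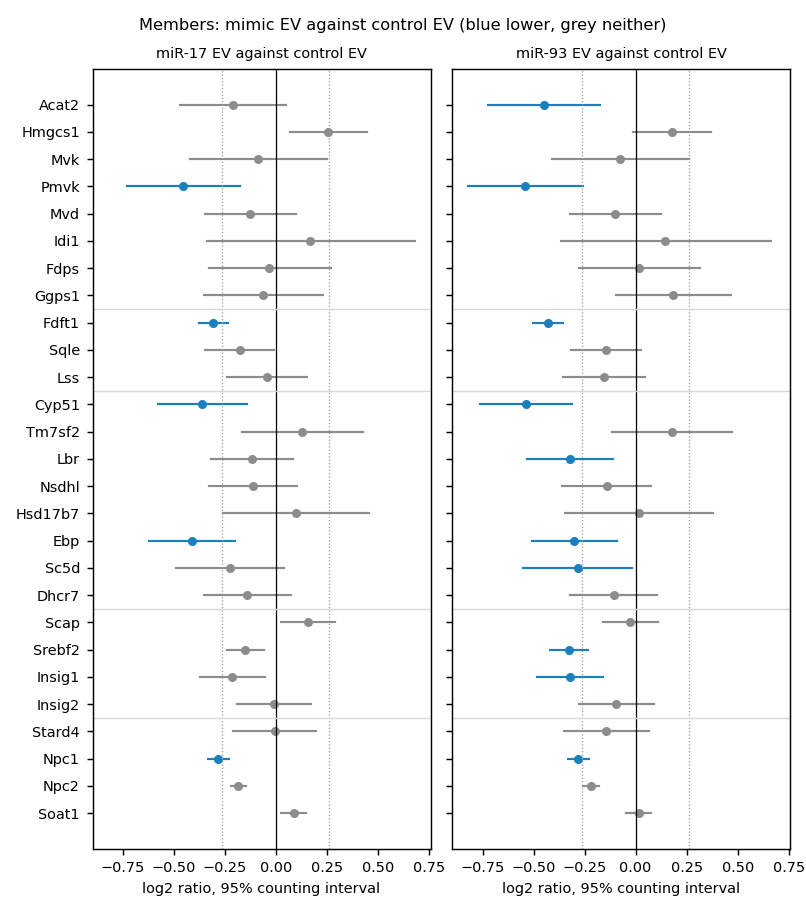
Log2 ratio of each member in the mimic libraries to the control vesicle library, with 95% counting intervals and dotted lines at 1.2-fold; blue points are lower by the call rule. There are 5 such members for miR-17 vesicles and 10 for miR-93 vesicles, and none is higher.

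Between the mimic libraries, 0 members were higher and 0 lower in miR-93 vesicles against miR-17 vesicles, where 2.67% of genes were higher, 2.83% lower and 0.33% past 2-fold. The members' log2 ratios ran from -0.24 to 0.24 with a median of -0.07, beside 0.00 over all genes. No member thus separated the mimics by the rule used, also with the GC trend removed. In the authors' log2 values, with no interval, Ggps1 passed as higher, as did 11.6% of all genes.

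**Figure D4:**
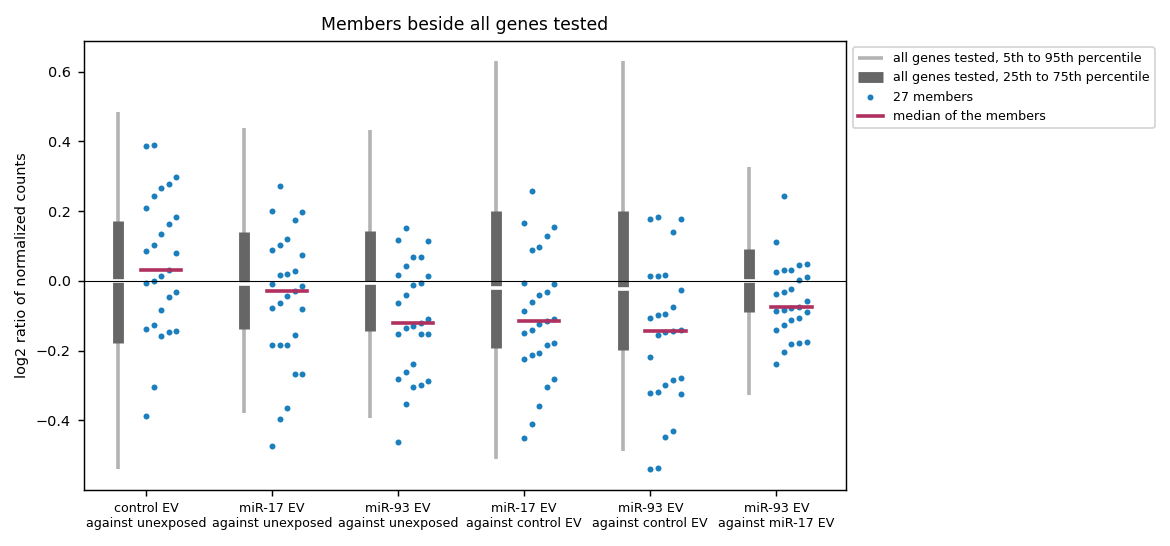
Log2 ratios of the 27 members (blue points, red line at their median) beside all genes tested (dark bar for the 25th to 75th percentile, light line for the 5th to 95th, white mark at the median) in each of the 6 pairs. The members' median is -0.12 for miR-93 vesicles against unexposed and -0.14 for miR-93 vesicles against control vesicles, and no member is past 2-fold.

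Summed over the 19 enzymes of synthesis, normalized counts were 8520.3 in unexposed, 9263 with control vesicles, 8122 with miR-17 vesicles and 7759 with miR-93 vesicles. The ratio to unexposed was 1.09 (1.05 to 1.12) for control vesicles, 0.953 (0.925 to 0.982) for miR-17 vesicles and 0.911 (0.883 to 0.939) for miR-93 vesicles. With libraries scaled by total counts, the same ratios were 1.08 (1.05 to 1.12), 0.987 (0.957 to 1.02) and 0.939 (0.911 to 0.968), so that the interval for miR-17 vesicles then included 1. Fdft1 alone decided the ratio for control vesicles. Without it the 18 other enzymes gave 1.01 (0.974 to 1.05) for control vesicles, 0.932 (0.898 to 0.967) for miR-17 vesicles and 0.91 (0.877 to 0.945) for miR-93 vesicles.

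By role, the sum of the 8 mevalonate and isoprenoid genes had ratios to unexposed of 0.961 (0.90 to 1.03), 0.931 (0.875 to 0.99) and 0.917 (0.862 to 0.976) with control vesicles, miR-17 vesicles and miR-93 vesicles. The 8 post-lanosterol genes gave 1.08 (1.02 to 1.15), 0.957 (0.904 to 1.01) and 0.927 (0.875 to 0.981). The 4 sensor and transcription factor genes gave 1.07 (1.02 to 1.12), 1.02 (0.975 to 1.06) and 0.914 (0.875 to 0.956). All these sums were lowest with miR-93 vesicles.

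Genes of the same or related pathways that are not members were described from further lists. Against unexposed, 10.6% of all genes were higher and 11.1% lower with control vesicles by the same rule. The shares were 6.67% and 6.14% with miR-17 vesicles, and 7.05% and 6.77% with miR-93 vesicles. These shares stand beside the counts of every further list, each of which rests on few genes. Of 15 tested genes of sterol regulation, 1 was higher and 2 lower with control vesicles, none was past the threshold with miR-17 vesicles, and 2 were higher and 2 lower with miR-93 vesicles, each against unexposed. Mbtps2, the protease that makes the final cut in SREBP proteins, had 469 normalized counts in unexposed, 371 with control vesicles, 522 with miR-17 vesicles and 570.3 with miR-93 vesicles. It was lowest with control vesicles, as were 32.1% of all genes. Its ratio to unexposed was 0.792 (0.683 to 0.916) with control vesicles and 1.22 (1.08 to 1.38) with miR-93 vesicles.

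A further list covered sterol efflux and the receptor LXR, and also held the receptor genes and enzymes that make oxysterols. Against unexposed, 0 of its 9 tested genes were higher and 2 lower with control vesicles. The counts were 0 and 5 with miR-17 vesicles and 0 and 2 with miR-93 vesicles, beside the shares of all genes given above. Abca1, the exporter that loads sterol on apolipoproteins, had 8979 normalized counts in unexposed, 6480.0 with control vesicles, 6565 with miR-17 vesicles and 7325 with miR-93 vesicles. It was highest in unexposed, as were 24.2% of all genes. Apoe, a carrier of exported sterol, had 20931, 23374, 16964 and 18119 normalized counts, and Abcg1, a further exporter, 6076, 5674, 4888 and 5413. Cyp27a1, which makes an oxysterol, had 367, 425, 271 and 298.

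Among 14 tested genes of fatty acid synthesis, 2 were higher and 2 lower than unexposed with control vesicles. With miR-17 vesicles 1 was higher and 3 lower, and with miR-93 vesicles also 1 and 3. The shares of all genes given above stand beside these counts. Fasn, fatty acid synthase, had 2697 normalized counts in unexposed, 2351 with control vesicles, 1922 with miR-17 vesicles and 1999.7 with miR-93 vesicles. Scd2, a desaturase, had 4045, 3467, 3031 and 2985, and Mid1ip1, an activator of acetyl-CoA carboxylase, 1089.7, 983, 884 and 796. These 3 were highest in unexposed, while the desaturase Fads1 was highest with control vesicles, with 1123, 1533, 1019 and 1027.

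The isoprenoid branch had 1 higher and 2 lower of 11 tested with control vesicles, 0 and 0 with miR-17 vesicles, and 1 and 1 with miR-93 vesicles. Pggt1b and Rabggtb, subunits of the enzymes that attach geranylgeranyl groups, were called in opposite directions with control vesicles, with log2 ratios to unexposed of -0.51 and 0.42. Nus1, a subunit of the dolichol synthase, was at 0.36 with miR-93 vesicles, and Coq2, of ubiquinone synthesis, at -0.27. Of the lysosomal and transfer proteins, 1 of 11 was higher and 0 lower with control vesicles, 1 and 1 of 10 with miR-17 vesicles, and 1 and 0 of 11 with miR-93 vesicles. For both lists the same shares of all genes apply. Scarb2, a lysosomal membrane protein, had 1672, 2429, 2022 and 2109 normalized counts and was lowest in unexposed. Lipa, the lysosomal lipase that frees sterol from esters, had 27080.4, 32494, 28562 and 28394, with the highest value with control vesicles, as for Npc1. Osbpl2 was at a log2 ratio of -0.27 with miR-17 vesicles and Gramd1a at -0.24, both sterol transfer proteins.

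Library properties moved beside these ratios. The mean aligned length of a read in the members had a median of 106 bases in unexposed, 116 with control vesicles, 99.9 with miR-17 vesicles and 102 with miR-93 vesicles. Spearman's rho of the log2 ratio to unexposed with GC content across all genes was 0.04 with control vesicles, -0.29 with miR-17 vesicles and -0.31 with miR-93 vesicles. Across the 27 members it was -0.13, -0.35 and -0.35. Genes share their library, so these are descriptions and not tests. In control vesicles against unexposed, the bin of genes centred on 47.4% GC had the highest median log2 ratio of the 20 bins, 0.09, and the bin at 37.5% the lowest, -0.15. The members' median GC content was 46.4%, beside 46.1% for all genes. The counts with the GC trend removed stand with each comparison above. The part of read length in these ratios was not tested.

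**Figure D5:**
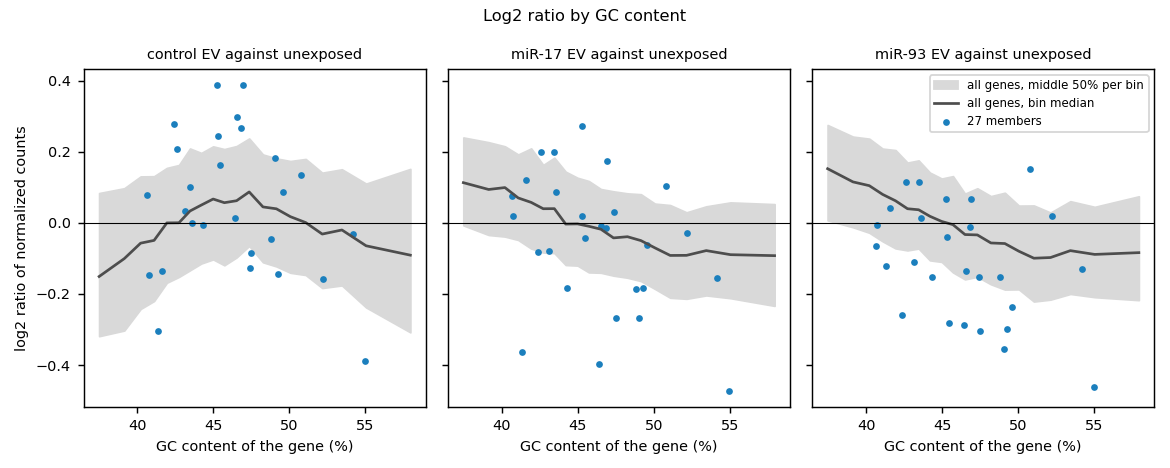
Log2 ratio to unexposed against GC content of the gene in percent for the 27 members (blue), with the median (line) and 25th to 75th percentile of all genes (band) in 20 GC bins. The line slopes down with GC in the mimic libraries and peaks at 0.09 near 47.4% GC with control vesicles.

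The authors' deposited table of fold changes held 5721 genes, beside 38087 counted, and 0 of the members were in it. By the call rule at 2-fold, 0.33% to 1.65% of all genes tested passed in a pair. Every gene in it had an absolute log2 fold change of at least 1 in some pair, which the members did not reach.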

How the data were processed

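Per the labels' protocols, pooled macrophage RNA was extracted with miRNeasy kits and made into 1 library per group (Ion Total RNA-Seq Kit v2). The deposited table gave raw read counts for 38087 genes, coverage (a signal per base) and GC content in percent, per the file headers. Gene length was the whole span from start to end in 38087 genes. The authors' log2 values, from a further deposited table, served as an alternative. The submitters' processing notes name mm10 and DESeq without versions. Not given in the sources used here: the aligner, the annotation and whether counting used strand. Levels per exonic kilobase use exon lengths from GENCODE M21.

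Counts were scaled by median-of-ratios size factors, and log2 ratios used normalized count plus 1. Intervals are 95% exact conditional (Clopper-Pearson). They cover counting error only, because each group was 1 library of pooled RNA. PCR copies lack molecular identifiers and count as reads, which the intervals do not allow for. The call rule was checked on simulated data. The alternatives were total counts, TMM scaling (edgeR 4.0.16), a minimum of 100 or none, GC trend removed, the authors' log2 values and leaving out overlapping members. Aligned bases and adding Sc4mol were chosen after seeing the data. The members and lists were chosen with earlier results of these data known. Of each further list, up to 4 genes were named: those averaging 100 or more normalized counts with the largest absolute log2 ratio to unexposed. Some genes that this rule picks are not reported here, though the list counts include them. Python 3.11.15, scipy 1.17.1 and R 4.3.3 were used.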

Additional observations from a re-analysis of the deposited data

How the results depend on the processing

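Of the members' log2 ratios over the 6 pairs, all 162 stayed within their counting interval under TMM scaling, 157 with total counts, 153 with the GC trend removed and 140 with the authors' log2 values. The one called ratio that changed sign was Cyp51 in control vesicles against unexposed, at -0.00070 in the authors' values; the cause was not tested. Calls near the threshold were lost even where the ratio stayed within its interval, as given below. A minimum of 100, or none, could change no call. All 27 members passed the minimum of 20, and Idi1, the member under 100 at a mean of 71.1, was called in no pair.

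Other settings moved some counts of members, and the cause was not tested. With the GC trend removed, control vesicles against unexposed had 3 higher and 1 lower, where 10.6% of all genes were higher and 9.87% lower. Against control vesicles, miR-17 vesicles then had 3 lower and miR-93 vesicles 6 lower, where 12.6% and 12.8% of all genes were lower. With total counts, miR-93 vesicles against unexposed had 2 lower and miR-17 vesicles against control vesicles 1 higher and 3 lower. Of all genes, 4.61% were then lower in the former pair, and 17.7% higher and 9.31% lower in the latter. TMM scaling also gave 1 higher in miR-17 vesicles against control vesicles, where 15.2% of all genes were then higher. It lost the call of Npc1 in control vesicles against unexposed and in both mimic libraries against control vesicles. Also lost were Npc2 in miR-17 vesicles against unexposed, Acat2 in miR-93 vesicles against unexposed and Sc5d in miR-93 vesicles against control vesicles. The authors' log2 values, which carry no counts and so no interval, gave 1 lower in control vesicles against unexposed, 2 higher in miR-93 vesicles against unexposed, 1 higher in miR-17 vesicles against control vesicles and 1 higher in miR-93 vesicles against miR-17 vesicles. With aligned bases, also without intervals, miR-17 vesicles against unexposed had 0 higher, miR-17 vesicles against control vesicles 1 higher and 8 lower, and miR-93 vesicles against miR-17 vesicles 1 higher and 1 lower. With no interval required, more of all genes pass too. In miR-17 vesicles against control vesicles 24.0% were higher and 21.3% lower by the authors' values, and 21.1% and 20.05% by aligned bases. By the authors' values, 21.1% of all genes were lower in control vesicles against unexposed. Higher by those values were 16.4% in miR-93 vesicles against unexposed and 11.6% in miR-93 vesicles against miR-17 vesicles. By aligned bases 13.4% were higher in miR-17 vesicles against unexposed. In miR-93 vesicles against miR-17 vesicles 9.13% were higher and 8.81% lower by aligned bases. Without the 7 members that overlap another gene, the fewer genes gave 3 higher and 1 lower in control vesicles against unexposed and 3 lower in miR-17 vesicles against control vesicles.

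No paired analysis was possible because each group was 1 library. Depth limits members with few reads: Idi1, with 56 to 83 reads, had an interval of 0.622 to 1.3 for control vesicles against unexposed, which includes 1.2-fold either way.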
